A study of Laccaria bicolor with 18 samples.

Results

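Glycolysis breaks sugar phosphates down to pyruvate in the cytosol and yields ATP and NADH. Hexokinase opens the route by phosphorylating glucose or fructose. Aldolase splits fructose-1,6-bisphosphate, glyceraldehyde-3-phosphate dehydrogenase (GAPDH) makes the NADH, and enolase forms phosphoenolpyruvate. Malate dehydrogenase interconverts malate and oxaloacetate with NADH or NAD, both in the tricarboxylic acid cycle and in shuttles that carry reducing power between compartments. Malic enzyme decarboxylates malate to pyruvate and, in many fungi, supplies NADPH for fatty acid synthesis. In an ectomycorrhizal fungus these routes are fed mostly by sugar from the host tree.

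The 7 gene models described here carry glycolysis or malate annotations and were followed across the caps and stipes of basidiocarps (mushrooms) of the ectomycorrhizal fungus Laccaria bicolor S238N. They are 7 of the 23130 gene models in the files, and all 7 were among the 16485 that passed the filter on low counts. The glycolysis-annotated models are hexokinase JGI.312018, class II fructose-bisphosphate aldolase JGI.291195, GAPDH JGI.295504, enolase JGI.181287 and malate dehydrogenase JGI.326114. The malate models are malate dehydrogenase JGI.185536 and malic enzyme JGI.705233. A name such as JGI.312018 gives the JGI protein ID of a gene model. The first 5 were picked from expression clusters that the study had built on these same libraries: JGI.295504 from one high in late caps and late stipes, the others from one that peaks in late stipes. Their levels and fold changes are therefore given as a description, and no p is printed for any of them. Calls and counts that use a p are still given for these 5. They are part of that description and are not evidence of change. The same holds where counts of members stand beside the share of all gene models. The last 2 were picked by annotation and mean level. The model JGI.185536 is also on the study's list of gene models regulated among these libraries, and its tests are not independent of that list.

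Basidiocarps formed in a nursery bed with inoculated Douglas fir seedlings. They were harvested at an early, a medium and a late stage and divided into cap, which bears the spores, and stipe, the stalk. Each of the 6 groups had 3 libraries that the labels call biological replicates, 18 in all, and the labels set the groups apart by stage and tissue only. The study's methods do not say whether harvest dates or batches differed between the groups. How many mushrooms went into a library is not given in the sources used here. The comparisons ask how the levels changed with stage in each tissue and how caps differed from stipes at each stage. In whole tissue, fewer cells of a type and less RNA per cell cannot be told apart.

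The libraries held 38976106 to 90888294 reads (median 54676655). The members took from 0.126% to 0.397% of them, with 0.336%, 0.397% and 0.393% in late stipes, and every member had at least 2167 reads in every library. Some replicates were closer than others. Medium stipes 1 and 2 varied by 4.15% (biological coefficient of variation between 2 libraries) and late caps 2 and 3 by 4.04%, against 9.25% to 38.4% for the other pairs, the highest of which were those of medium stipe 3. Whether the libraries of these 2 close pairs share material was not tested. The main fit counts each as a separate library, and an alternative fit summed each close pair. The labelled tissue was set beside the level of 1 gene of meiotic recombination, JGI.399758. It averaged 6.8, 34.1 and 68.8 CPM (reads per 1000000 library reads, after TMM scaling) in early, medium and late caps. In early, medium and late stipes it averaged 6.1, 10.5 and 12.2 CPM. The study lists this function among the top terms of its cluster that peaks in late caps of these libraries. The gene is therefore not an independent check of the medium and late labels. It did not separate the tissues at the early stage (log2 fold change 0.16, not called), so the labels of the early libraries are not checked by it.

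Late stipes had the highest mean level of 6 of the 7 gene models. Only malate dehydrogenase JGI.185536 differed, with a low point at the medium stage in both tissues. The plot of CPM by library shows all values.

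**Figure D1:**
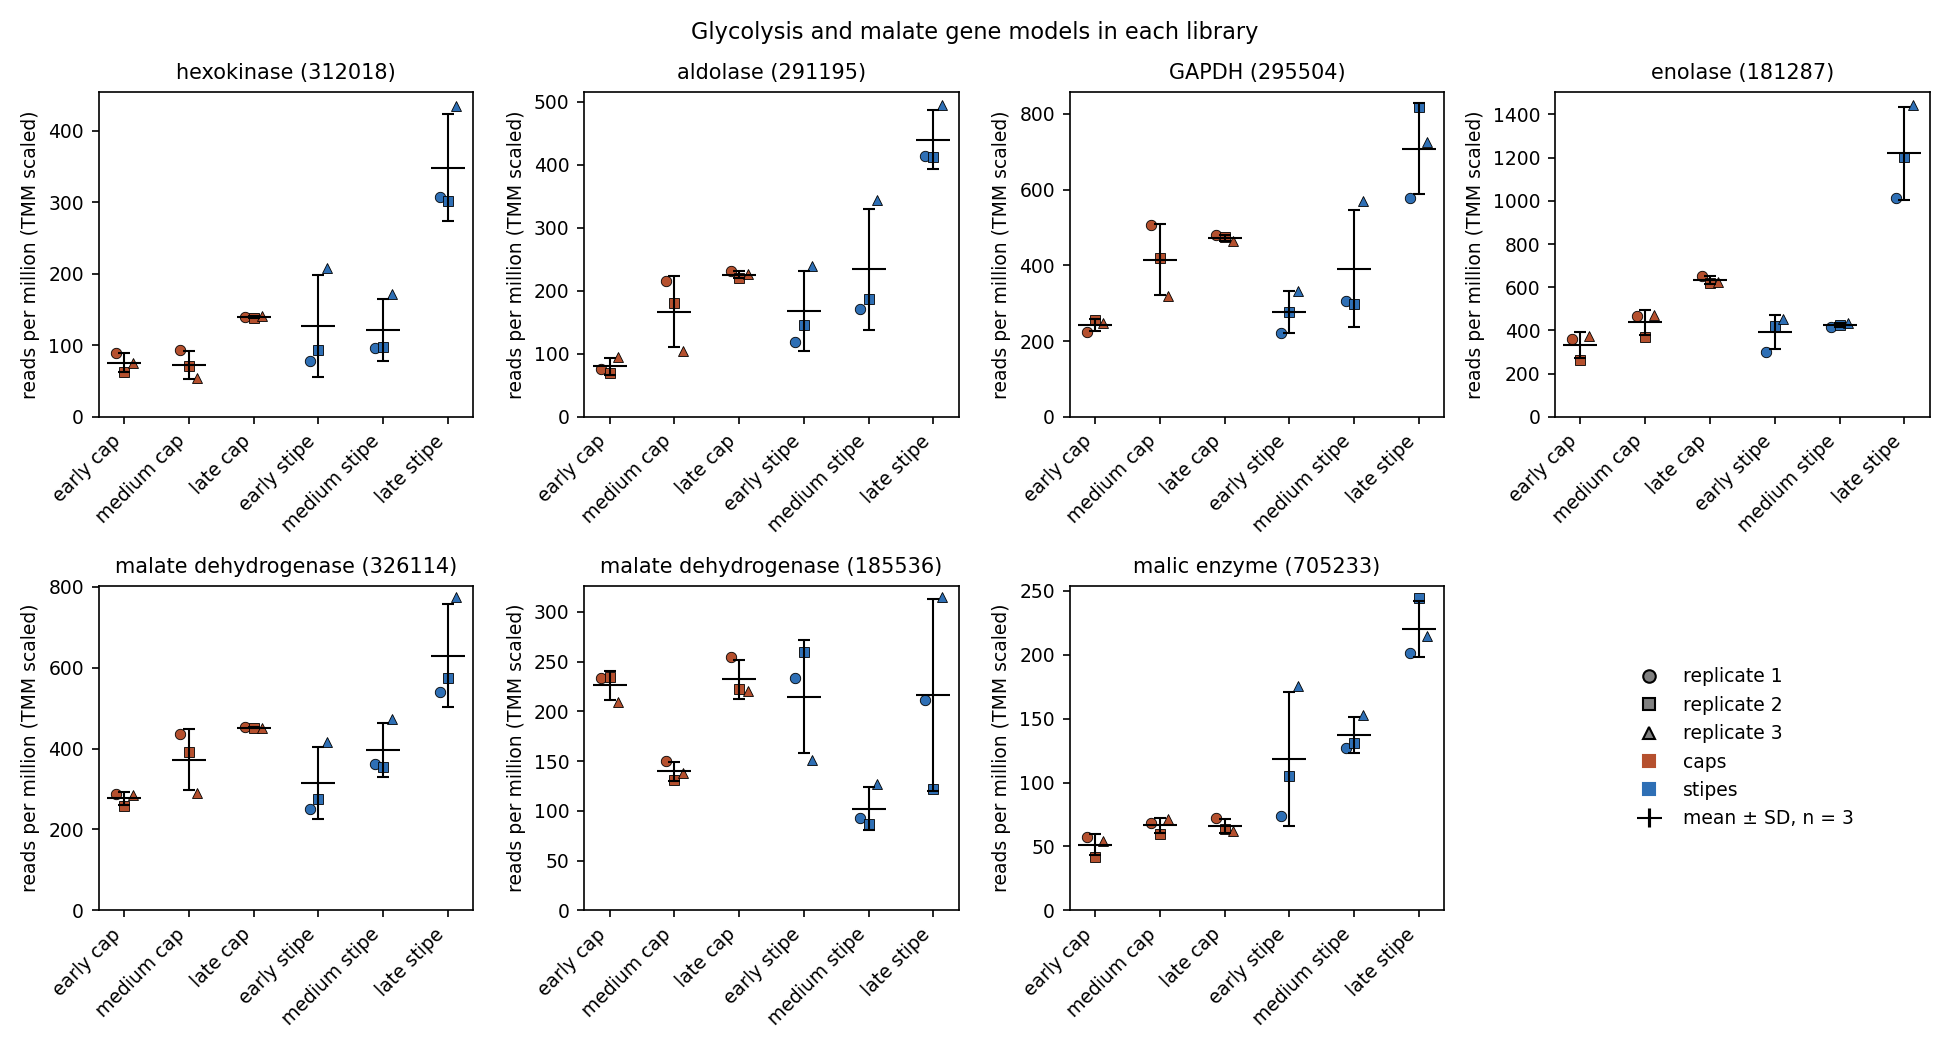
Level of each gene model in each library, in TMM-scaled CPM, with caps at left and stipes at right and stages from early to late. Symbols give the replicate, and bars give the mean ± SD of 3 libraries. The 3 late stipes lie above every other library for hexokinase, aldolase, GAPDH, enolase, malate dehydrogenase JGI.326114 and malic enzyme, while malate dehydrogenase JGI.185536 is lowest in medium stipes.

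Hexokinase JGI.312018 had 77.6, 93.7 and 209 CPM in early stipes 1 to 3, 95.8, 97.7 and 172 CPM in medium stipes and 308, 302 and 435 CPM in late stipes. The late stipes were above every other library, and replicate 3 was the highest of each stage. In caps it had 88.9, 62.1 and 75.8 CPM at the early stage, 93.7, 70.8 and 54.2 CPM at the medium stage and 139, 138 and 140.5 CPM at the late stage. Late caps were thus above all earlier caps, while early and medium caps overlapped. The fold change was 1.46 ± 0.33 (log2 ± SE) in late against early stipes and 0.88 ± 0.33 in late against early caps.

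Aldolase JGI.291195 changed in both tissues. It had 119, 146 and 239 CPM in early stipes, 170.2, 186 and 344 CPM in medium stipes and 414, 411 and 494 CPM in late stipes. Only late stipes stood clear of the rest, because replicate 3 of the early stipes was above replicates 1 and 2 of the medium ones. In caps the stages did not overlap at all: it had 75.8, 69.1 and 95.0 CPM in early caps, 215, 180.5 and 105 CPM in medium caps and 231, 219 and 227 CPM in late caps. The log2 fold change was 1.39 ± 0.31 in late against early stipes and 1.5 ± 0.31 in late against early caps, and it was already 1.06 ± 0.31 in medium against early caps.

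GAPDH JGI.295504 had 222, 277 and 333 CPM in early stipes, 306, 297 and 569 CPM in medium stipes and 579, 817 and 725 CPM in late stipes. Medium stipe 3 came just below the lowest late stipe. In caps it had 225, 255 and 248 CPM at the early stage, 508, 419 and 318 CPM at the medium stage and 481, 474 and 463 CPM at the late stage. Late and medium caps overlapped and both were above early caps. The log2 fold change was 1.35 ± 0.26 in late against early stipes, 0.96 ± 0.26 in late against early caps and 0.78 ± 0.25 in medium against early caps.

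Enolase JGI.181287 had 301, 419.8 and 452 CPM in early stipes, 415, 424 and 435 CPM in medium stipes and 1014, 1201 and 1445 CPM in late stipes. The early and medium stipes overlapped, and the late ones were above every other library. In caps it had 361, 264 and 372 CPM at the early stage, 467, 371 and 473 CPM at the medium stage and 654, 621 and 623 CPM at the late stage. Late caps were above all earlier caps. The log2 fold change was 1.64 ± 0.21 in late against early stipes and 0.93 ± 0.21 in late against early caps.

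The pair of malate dehydrogenases followed different courses. Model JGI.326114 had 249.8, 276 and 417 CPM in early stipes, 363, 355 and 474 CPM in medium stipes and 540.0, 574 and 775 CPM in late stipes. In caps it had 287, 257 and 285 CPM at the early stage, 436, 392 and 290.0 CPM at the medium stage and 453, 452 and 451 CPM at the late stage. The stages of the caps did not overlap, and late stipes were above every other library. The log2 fold change was 1.0 ± 0.23 in late against early stipes and 0.71 ± 0.22 in late against early caps.

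Model JGI.185536 instead was lowest at the medium stage. It had 93.2, 86.3 and 127 CPM in medium stipes, against 233, 259.7 and 151 CPM in early stipes, and 149.9, 131 and 138 CPM in medium caps, against 234, 235 and 209.6 CPM in early caps. No medium library reached the lowest early library of its tissue. At the late stage it had 255, 222 and 220.1 CPM in caps, all above medium caps, and 211, 122 and 315 CPM in stipes, where replicate 2 lay below medium stipe 3. The log2 fold change in medium against early stipes was -1.07 ± 0.27 (adjusted p = 0.0349, edgeR, quasi-likelihood F test adjusted by Benjamini-Hochberg over 16485 gene models, here and below), and in medium against early caps it was -0.70 ± 0.27 (adjusted p = 0.168, edgeR). In late against medium stipes it was 1.08 ± 0.27 (adjusted p = 0.00613, edgeR), and in late against medium caps 0.74 ± 0.27 (adjusted p = 0.0432, edgeR). Late and early libraries gave 0.01 ± 0.27 in stipes (adjusted p = 0.983, edgeR) and 0.04 ± 0.27 in caps (adjusted p = 0.924, edgeR).

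In stipes the calls of these changes at the medium stage depended on single libraries and on the fit. A gene model was called changed when its log2 fold change was beyond 1 in either direction with an adjusted p under 0.05. In medium against early stipes JGI.185536 was no longer called without early stipe 1 (-1.02), early stipe 2 (-0.91), medium stipe 1 (-1.01), medium stipe 2 (-0.97) or late cap 3 (-1.06), with only the compared groups in the fit (-1.09) or with near-identical replicates summed (-1.01), and over the alternatives its adjusted p in edgeR and DESeq2 ranged from 0.00394 to 0.161. In late against medium stipes the call was lost without medium stipe 2 (0.99) or late stipe 3 (0.74), and with only the compared groups in the fit (1.09, adjusted p = 0.0559, edgeR). The direction was the same in all of them. In caps neither change passed the fold threshold, and the adjusted p in edgeR and DESeq2 also varied over the alternatives. It ranged from 0.00884 to 0.105 in late against medium caps and from 0.0879 to 0.434 in medium against early caps. Of the 7 members, JGI.185536 was the only one called in medium against early stipes, where 1.6% of all gene models tested were called lower. It was also the only one with all medium stipes below all early stipes, as were 10.4% of all.

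Per kilobase, the pair of malate dehydrogenases was set side by side. The ratio of JGI.326114 to JGI.185536 in RPKM was 1.12, 1.0 and 1.24 in early caps, 2.65, 2.73 and 1.92 in medium caps and 1.62, 1.86 and 1.87 in late caps. In stipes it was 0.98, 0.97 and 2.52 at the early stage, 3.55, 3.75 and 3.41 at the medium stage and 2.33, 4.29 and 2.25 at the late stage. So the models were near parity in 5 of the 6 early libraries, with early stipe 3 the exception, and JGI.326114 prevailed in all later ones.

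**Figure D2:**
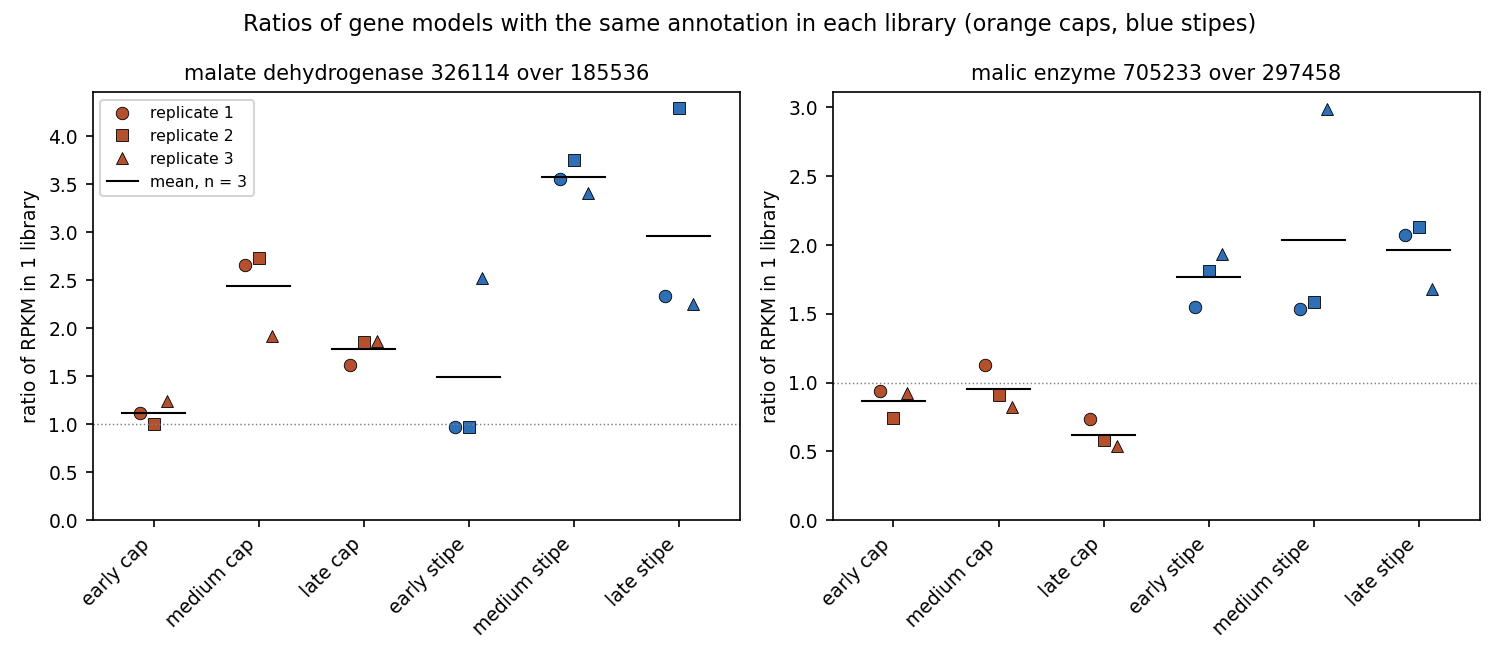
Ratio of RPKM within each library for the malate dehydrogenases (JGI.326114 over JGI.185536, left) and the malic enzymes (JGI.705233 over JGI.297458, right), with caps in orange, stipes in blue, symbols for replicates and a line at the mean of 3. The mean malate dehydrogenase ratio is highest in medium stipes (3.57, range 3.41 to 3.75), while the highest single ratio is that of late stipe 2 (4.29). The malic enzyme ratio is 1.53 or more in every stipe and 1.13 or less in every cap.

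Malic enzyme JGI.705233 was lower in caps than in stipes at every stage. It had 57.7, 41.7 and 54.6 CPM in early caps, against 74.2, 105 and 176 CPM in early stipes. It had 68.6, 59.5 and 71.1 CPM in medium caps, against 127, 131 and 153 CPM in medium stipes. It had 72.3, 63.5 and 61.9 CPM in late caps, against 202, 244 and 215 CPM in late stipes. At each stage the highest cap was below the lowest stipe. The log2 fold change of caps against stipes was -1.20 ± 0.24 at the early stage (adjusted p = 0.00427, edgeR), -1.05 ± 0.23 at the medium stage (adjusted p = 0.00468, edgeR) and -1.74 ± 0.24 at the late stage (adjusted p = 2.85e-05, edgeR). The early difference was -0.82 without early stipe 3, and the medium one -0.98 without medium cap 2 and -0.96 without medium stipe 3, all short of the fold threshold but with adjusted p under it (0.0157, 0.0302 and 0.0117, edgeR).

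With stage, the log2 fold change of malic enzyme was 0.90 ± 0.23 in late against early stipes (adjusted p = 0.00596, edgeR) and 0.68 ± 0.23 in late against medium stipes (adjusted p = 0.0306, edgeR), both below the fold threshold. Without early stipe 3 the late against early value was 1.30 and past it. Over the alternatives the adjusted p of late against medium stipes ranged from 0.00481 to 0.101 in edgeR and DESeq2. In late against early caps the log2 fold change was 0.36 ± 0.23 (adjusted p = 0.244, edgeR), although all late caps were above all early caps. The difference between the tissues in this change, caps minus stipes, was -0.54 ± 0.33 (adjusted p = 0.256, edgeR).

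Another gene model annotated as malic enzyme, JGI.297458, overlapped between the tissues at the late stage. Its level was 84.3, 93.5 and 97.6 CPM in late caps, against 83.3, 97.9 and 109.5 CPM in late stipes, with a log2 fold change of -0.08 ± 0.22 (adjusted p = 0.794, edgeR). The ratio of JGI.705233 to JGI.297458 in RPKM was 0.543 to 1.13 over the 9 caps and 1.53 to 2.99 over the 9 stipes. The mean log2 ratio of caps minus stipes was -1.02 at the early, -1.04 at the medium and -1.67 at the late stage. In a two-sided exact permutation test each stage gave p = 0.1, the smallest that 3 against 3 libraries allow.

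Over all members, 5 of 7 passed the call rule as higher in late against early stipes, namely hexokinase, aldolase, GAPDH, enolase and malate dehydrogenase JGI.326114. Of all gene models tested, 7.63% were called higher in that comparison. All 5 came from clusters chosen on these libraries, so nothing is read from the count. In 6 of the 7 every late stipe was above every early stipe, as in 26.2% of all gene models. These include the same 5, so the same limit holds. The value for JGI.326114 lies on the threshold and fell to 0.87 without early stipe 1, 0.93 without early stipe 2 and 0.83 without late stipe 3. With only the compared groups in the fit it was 0.998, just short of the threshold.

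Late against medium stipes gave 3 of 7 higher, against 6.2% of all gene models. Enolase had 1.52 ± 0.21 and hexokinase 1.52 ± 0.33, beside JGI.185536. Aldolase had 0.91 ± 0.31, GAPDH 0.86 ± 0.25 and JGI.326114 0.67 ± 0.22, with all late stipes above all medium stipes, as in 6 of the 7 members and in 22.1% of all gene models. Without medium stipe 3, aldolase (1.30) and GAPDH (1.23) also passed, which made 5 of 7. The passing members other than JGI.185536 were chosen from clusters high in late stipes of these libraries. Nothing is therefore read from the counts of this comparison.

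In late against early caps only aldolase passed, 1 of 7, where 9.27% of all gene models were called higher. The other members ranged from 0.04 to 0.96. In 6 of the 7 all late caps were above all early caps, against 30.4% of all gene models. GAPDH passed without early cap 2 (1.02), medium cap 2 (1.03) or late cap 3 (1.04), and enolase without early cap 1 (1.02), early cap 3 (1.02) or late cap 3 (1.0).

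The steps between neighbouring stages of caps gave no member call in edgeR. Late against medium caps had 0 of 7, where 15% of all gene models were called in either direction, 3 members with an unadjusted p under 0.05 and 0 called by DESeq2. All late caps were above all medium caps for 5 members, and for 25.2% of all gene models. The largest member value was 0.93 ± 0.33 for hexokinase, which was 1.20 and past the threshold without medium cap 1. Medium against early caps had 0 of 7, where 2.03% of all were called, 3 members with an unadjusted p under 0.05 and 1 called by DESeq2. All medium caps were above all early caps for 4 members (9.95% of all gene models) and below them for 1, JGI.185536 (9.6% of all). The DESeq2 call was aldolase, which also passed in edgeR without early stipe 3 (1.04), medium cap 3 (1.28) or medium stipe 3 (1.06).

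Between tissues, 2 of 7 members were lower in early caps than in early stipes, where 2.98% of all gene models were called lower. They were aldolase (-1.07 ± 0.31) and malic enzyme, and the same 2 had all early caps below all early stipes, as had 16.6% of all. The aldolase call was lost without early cap 1 (-1.05), early cap 2 (-0.98), early cap 3 (-1.21), early stipe 2 (-1.17), early stipe 3 (-0.74) or late cap 3 (-1.09), and the malic enzyme call without early stipe 3 (-0.82). In medium caps against medium stipes only malic enzyme was called, 1 of 7, where 5.05% of all were called lower. Hexokinase had -0.74 ± 0.33. For hexokinase and malic enzyme all medium caps were below all medium stipes, as for 16% of all gene models. Model JGI.185536 had 0.45 ± 0.27 (adjusted p = 0.219, edgeR), with all medium caps above all medium stipes, as in 18% of all gene models. That malic enzyme call was lost without medium cap 2 (-0.98) or medium stipe 3 (-0.96).

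In late caps against late stipes 2 of 7 were called lower, hexokinase (-1.32 ± 0.33) and malic enzyme, where 9.55% of all gene models were. Enolase had -0.95 ± 0.21, aldolase -0.96 ± 0.31, GAPDH -0.58 ± 0.25 and JGI.326114 -0.48 ± 0.22, and the late caps were below the late stipes in these 4 and in both called members (6 of 7, against 34% of all gene models). All of these 6 but malic enzyme were chosen from clusters high in late stipes of these libraries, so nothing is read from either count. The model JGI.185536 had 0.11 ± 0.27 (adjusted p = 0.769, edgeR). Enolase passed without late stipe 1 (-1.06) and aldolase without late stipe 2 (-1.01).

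Whether late against early differed between the tissues was fitted as the change in caps minus the change in stipes. It gave 0 of 7 members called in edgeR, where 14.5% of all gene models were called, 1 with an unadjusted p under 0.05 and 0 called by DESeq2. Enolase had -0.71 ± 0.29, hexokinase -0.58 ± 0.46 and aldolase 0.11 ± 0.43. Without early stipe 3 hexokinase had -1.13 and was called, and aldolase had -0.22.

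The rest of the glycolytic route was read from 6 further gene models with such annotations. Of these, 4 of 6 were called higher in late against early stipes, where 7.63% of all gene models were (median of all 6 1.32, against -0.01 over all gene models tested). They were GAPDH JGI.184409 (2.22 ± 0.71), the bifunctional 6-phosphofructo-2-kinase/fructose-2,6-bisphosphatase JGI.648157 (1.55 ± 0.17), which sets the level of a regulator of glycolysis, phosphoglucomutase JGI.305339 (1.46 ± 0.29), which links glucose-1-phosphate to the route, and triosephosphate isomerase JGI.184184 (1.18 ± 0.35). Models JGI.648157, JGI.305339 and JGI.184184 were themselves in the study's clusters from these libraries, and JGI.184409 was on its list of regulated models. Nothing is therefore read from the counts of these further models or from their median. In late against early caps 2 of 6 were higher, JGI.305339 (1.12 ± 0.29) and JGI.184184 (1.07 ± 0.35), where 9.27% of all gene models were.

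Phosphoglucose isomerase JGI.320024, which acts after hexokinase, had fold changes of opposite sign in the 2 tissues. It had 23.2, 28.8 and 22.4 CPM in late stipes, against 27.9, 42.0 and 46.3 CPM in early stipes (-0.65 ± 0.18, not past the fold threshold). It had 108, 102 and 98.5 CPM in late caps, against 67.6, 58.1 and 63.6 CPM in early caps (0.70 ± 0.18). In late caps against late stipes it was higher by 2.05 ± 0.19, while hexokinase, JGI.648157 (-1.81 ± 0.17) and JGI.305339 (-1.36 ± 0.29) were lower.

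**Figure D3:**
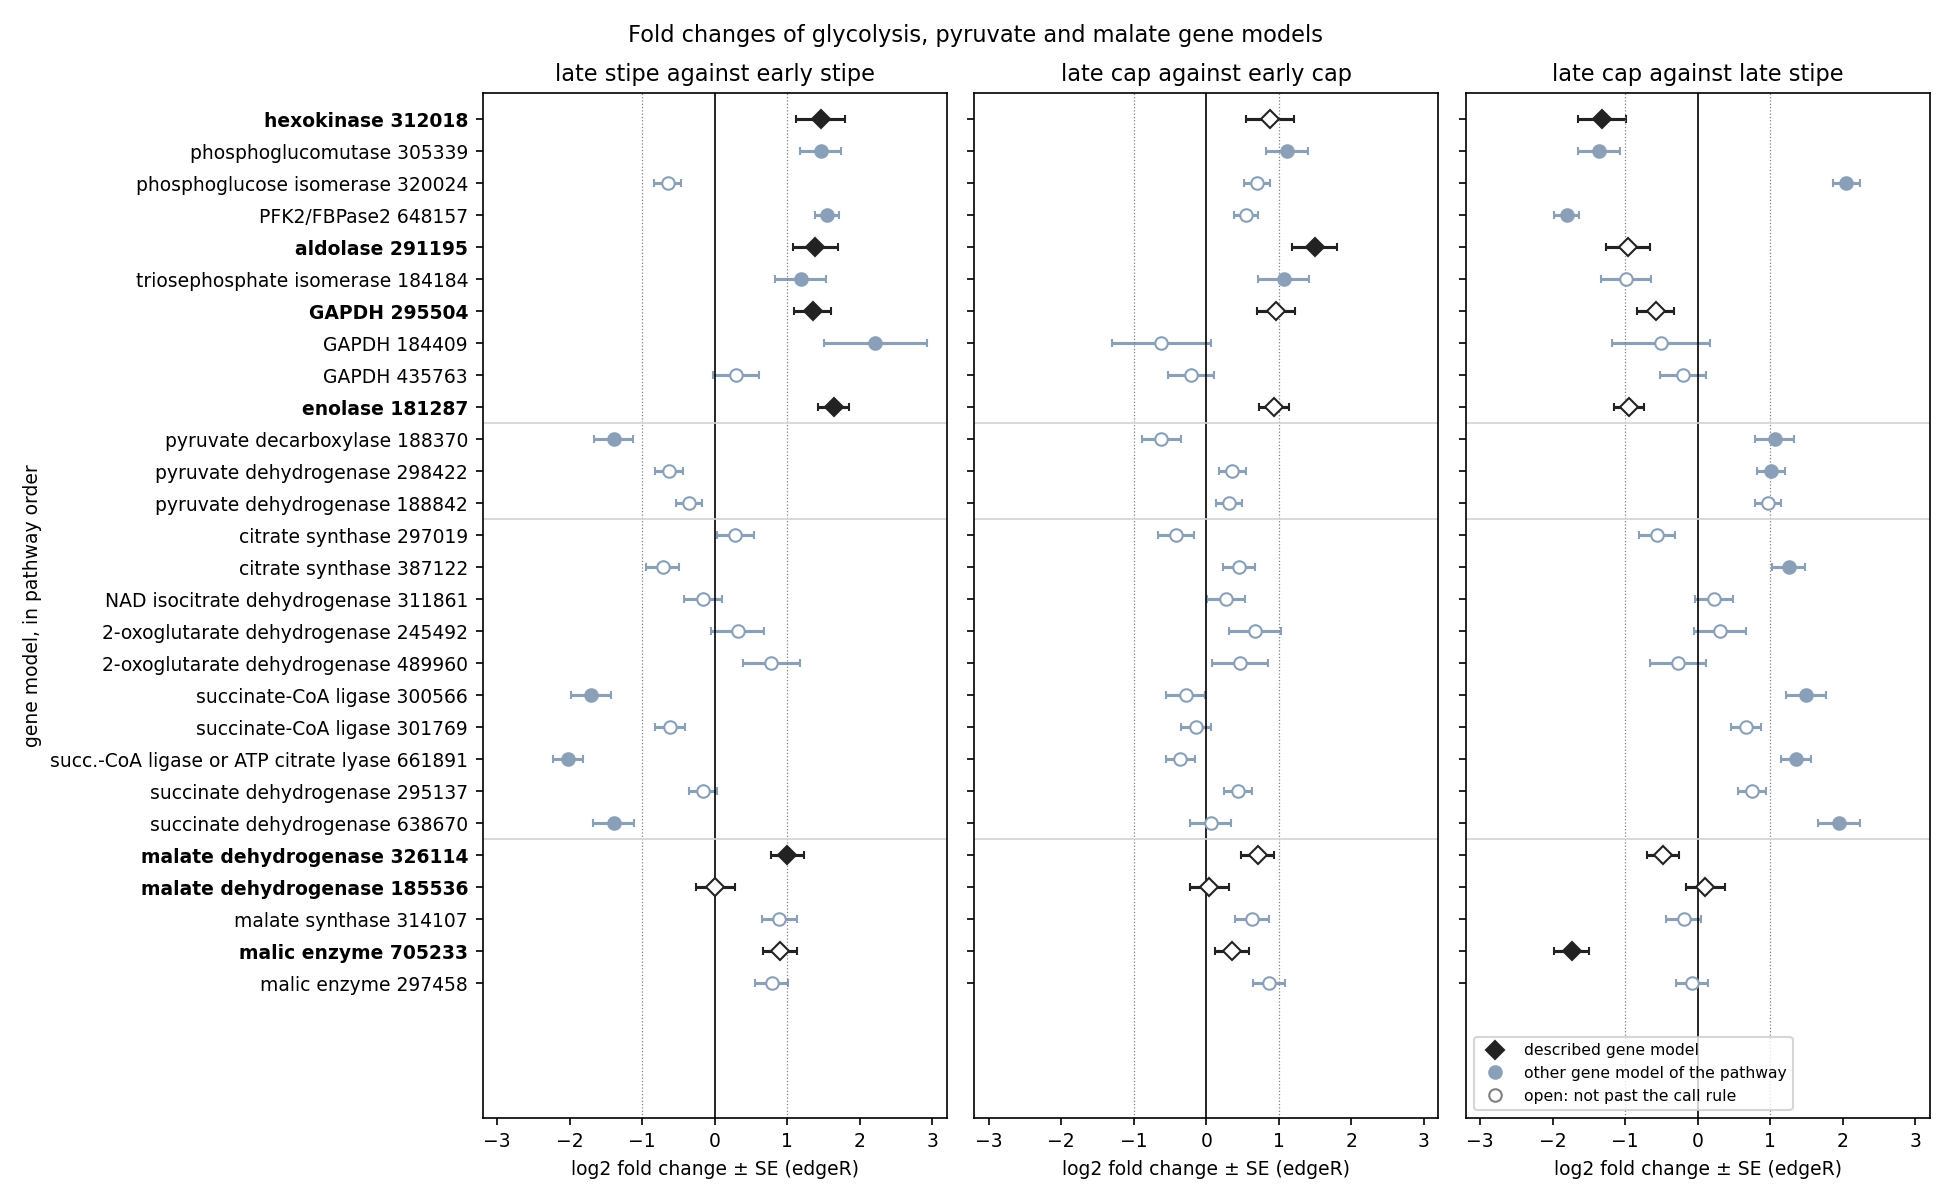
Log2 fold change ± SE from edgeR for the 7 described gene models (black diamonds, bold names) and the 21 other gene models of the same routes (grey-blue circles), from hexokinase at the top to malic enzyme at the bottom, with filled symbols past the call rule and dotted lines at a log2 fold change of 1 in either direction. In stipes (left) most glycolysis models lie to the right of 0, while the filled circles of pyruvate use, malate and the tricarboxylic acid cycle lie to the left and the filled diamond of malate dehydrogenase JGI.326114 to the right. In late caps against late stipes (right) the filled circles of those groups lie to the right and the filled diamond of malic enzyme JGI.705233 to the left.

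GAPDH is annotated on 3 gene models of very different level and spread. The member JGI.295504 varied within a group by at most 1.91 times. The model JGI.184409 had 82.4, 48.5 and 60.3 CPM in early stipes, 372, 379 and 49.0 CPM in medium stipes and 245, 146 and 498 CPM in late stipes, so that medium stipe 3 stood with the early stipes. In caps it had 199.7, 175 and 585 CPM at the early stage, 170.1, 312 and 837 CPM at the medium stage and 199, 212 and 214 CPM at the late stage. The ratio of JGI.295504 to JGI.184409 in RPKM ran from 0.404 to 12.3 over the 18 libraries. The model JGI.435763 was near silent, with group means of 0.5 to 0.8 CPM.

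The 3 gene models of pyruvate use all had negative fold changes in late against early stipes. Pyruvate decarboxylase JGI.188370, which makes acetaldehyde from pyruvate, had 159, 154 and 201 CPM in late stipes, against 538, 499 and 314 CPM in early stipes (-1.39 ± 0.27). It was the only one of the 3 called, where 11.7% of all gene models were called lower, and the median of the list was -0.63. In late against early caps 0 of 3 were called, where 15.4% of all gene models were called in either direction, with 1 at an unadjusted p under 0.05 in edgeR and 0 called by DESeq2. In late caps against late stipes 2 of 3 were higher, JGI.188370 (1.06 ± 0.27) and pyruvate dehydrogenase JGI.298422 (1.01 ± 0.19), where 14.8% of all gene models were called higher.

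Of 12 further gene models of malate and the tricarboxylic acid cycle, 3 were called lower and 0 higher in late against early stipes, where 11.7% of all gene models were called lower and 7.63% higher. They were JGI.661891 (-2.02 ± 0.21), annotated as succinate-CoA ligase or ATP citrate lyase, succinate-CoA ligase JGI.300566 (-1.71 ± 0.28) and succinate dehydrogenase JGI.638670 (-1.39 ± 0.29). Model JGI.661891 had 94.0, 79.0 and 82.6 CPM in late stipes, against 366, 418 and 255 CPM in early stipes. In late against early caps 0 of 12 were called, against the same 15.4% of all gene models, with 3 at an unadjusted p under 0.05 in edgeR and 0 called by DESeq2. Malate synthase JGI.314107, which makes malate from glyoxylate and acetyl-CoA, had 0.89 ± 0.24 in stipes and 0.63 ± 0.24 in caps, below the fold threshold. In late caps against late stipes 4 of 12 were higher: JGI.638670 (1.94 ± 0.29), JGI.300566 (1.49 ± 0.28), JGI.661891 (1.35 ± 0.21) and citrate synthase JGI.387122 (1.25 ± 0.22), where 14.8% of all gene models were called higher.

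Per kilobase of transcript the order of the members' levels changed with the group. In late stipes enolase averaged 821 ± 99 RPKM (SD, n = 3), GAPDH 600.3 ± 130.4 RPKM, malate dehydrogenase JGI.326114 543 ± 60 RPKM and aldolase 414 ± 9.7 RPKM. Malate dehydrogenase JGI.185536 had 201 ± 71 RPKM there, hexokinase 199 ± 23 RPKM and malic enzyme 109 ± 19 RPKM. In early caps JGI.326114 averaged 263 ± 21 RPKM, enolase 246 ± 47 RPKM, JGI.185536 235 ± 16 RPKM and GAPDH 224 ± 9.6 RPKM, close to one another. Aldolase had 82.5 ± 14 RPKM, hexokinase 47.9 ± 9.5 RPKM and malic enzyme 27.6 ± 5.1 RPKM in those caps. Among all 23130 gene models enolase ranked 108 by mean RPKM in late stipes and 538 in early caps, hexokinase 484 and 3087, and malic enzyme 967 and 5119.

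The share of each member in the summed RPKM of all 7 showed the same shift. The share of JGI.185536 was 21.0% ± 2.3 in early caps (SD, n = 3), 10.1% ± 1.3 in medium caps and 12.5% ± 0.73 in late caps. In early, medium and late stipes it was 17% ± 6.6, 6.89% ± 0.33 and 7.01% ± 2.5. Enolase made up 20.9% to 24.2% in the other groups and 28.4% ± 0.95 in late stipes.

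Ordered by mean CPM, late stipes came first and late caps second for hexokinase, GAPDH, enolase and JGI.326114. For aldolase and malic enzyme medium stipes came second. Further down the order most neighbouring groups overlapped. For hexokinase late caps, early stipes and medium stipes overlapped in turn, as did early and medium caps. For GAPDH every neighbouring pair below late stipes overlapped, from late caps down to early caps. For JGI.326114 the same held. For malic enzyme the order was late, medium and early stipes, then medium, late and early caps, with an overlap between medium and early stipes and between medium and late caps. For JGI.185536 late caps, early caps, late stipes and early stipes overlapped in turn, and medium caps and then medium stipes lay below without overlap between neighbours. The order of the 6 means was the same in RPKM for every member but JGI.185536, whose early caps then came before late caps and early stipes before late stipes.

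Replicates of a group did not vary alike. Over the members the highest library of a group exceeded the lowest by a median of 1.05 times in late caps and 1.72 times in early stipes, with up to 2.69 times for hexokinase in early stipes. Early stipe 3 was the highest of its group for 6 of the 7 members and the lowest for JGI.185536. Medium stipe 3 was the highest of its group for all 7. Late stipe 3 was the highest for 5 of 7, and medium cap 3 the lowest for 4 of 7.

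The correlation of log2(CPM + 1) over the 18 libraries describes how far members moved together. The libraries share their groups, so the points are not independent. Pearson's r was 0.78 to 0.94 among hexokinase, aldolase, GAPDH, enolase and JGI.326114, which is partly set by their choice from clusters. Malic enzyme had r of 0.58 to 0.81 with those 5. The model JGI.185536 had r between -0.27 and 0.17 with every other member.

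**Figure D4:**
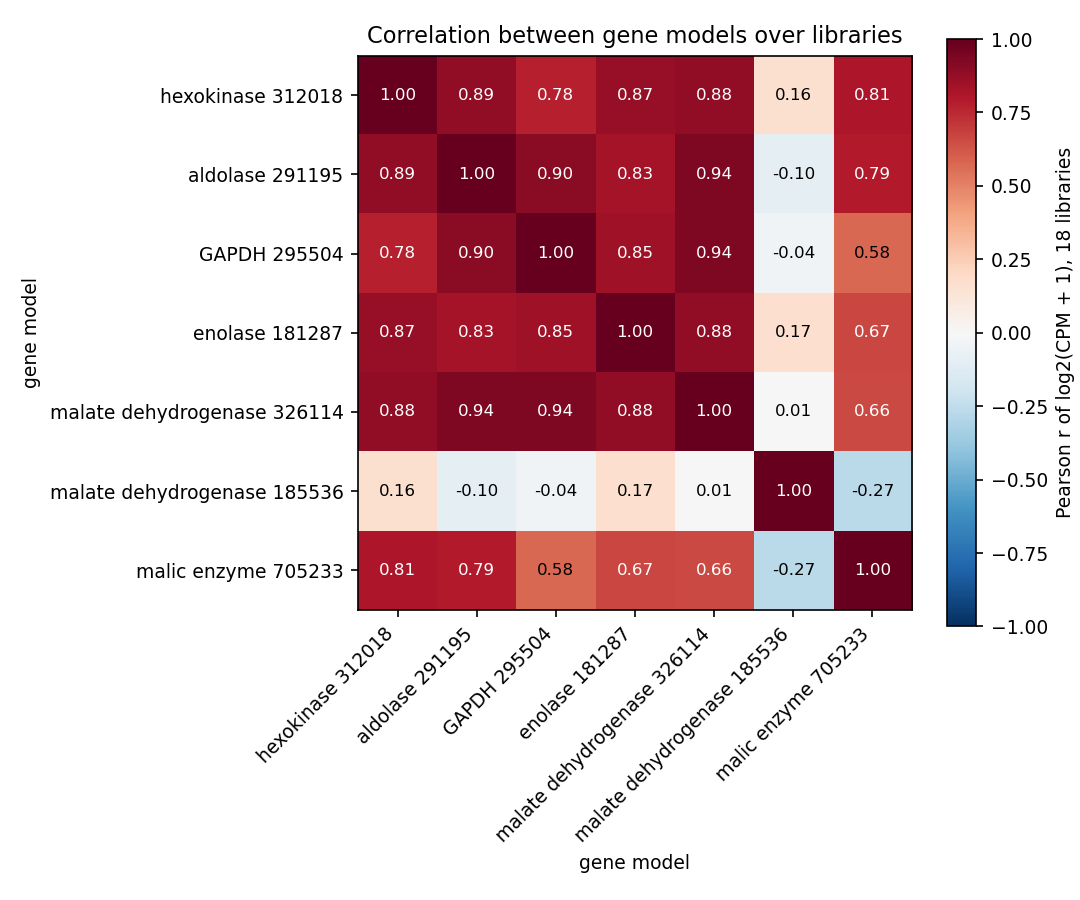
Pearson's r between gene models of log2(CPM + 1) over the 18 libraries, on a colour scale from -1 (blue) to 1 (red). Malate dehydrogenase JGI.185536 has r between -0.27 and 0.17 with the other 6, which have r of 0.58 to 0.94 with one another.

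Among all gene models tested the nearest profile to aldolase was that of triosephosphate isomerase JGI.184184 (r = 0.97), the next enzyme of the route. After it came JGI.679513 (r = 0.96) and JGI.658328 (r = 0.96). GAPDH was nearest to JGI.315853 (r = 0.96), then to malate dehydrogenase JGI.326114 (r = 0.94) and JGI.248359 (r = 0.93). Aldolase, JGI.184184, GAPDH and JGI.326114 were all in the study's clusters from these libraries, which partly sets their likeness. Hexokinase was nearest to JGI.445965, annotated as a short-chain dehydrogenase/reductase (r = 0.97), JGI.576688 (r = 0.96) and JGI.580387 (r = 0.96). Malate dehydrogenase JGI.185536 was nearest to JGI.184002, annotated as a TauD/TfdA dioxygenase (r = 0.94), JGI.460674 (r = 0.94) and JGI.654676, annotated as acyl-CoA oxidase/dehydrogenase (r = 0.94). Malic enzyme was nearest to JGI.309303 (r = 0.98), JGI.703385 (r = 0.98) and JGI.307848 (r = 0.97). Enolase was nearest to JGI.616964 (r = 0.96), JGI.709114 (r = 0.95) and JGI.638384 (r = 0.95). Malate dehydrogenase JGI.326114 was nearest to JGI.643156, a small GTPase (r = 0.96), JGI.473733 (r = 0.96) and JGI.633056 (r = 0.96).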

How the data were processed

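Total RNA of caps and stipes was made into stranded mRNA libraries and sequenced as paired reads on an Illumina HiSeq. The authors trimmed reads and mapped them to the Laccaria bicolor v2 transcripts with CLC Genomics Workbench, where a read could match several transcripts. They deposited raw read counts per gene model and RPKM values (mapped reads per kilobase, scaled to the library) for each library. Whether the counts hold uniquely mapped or all mapped reads, and whether they used strand, is not given in the sources used here, so reads of near-identical copies or overlapping genes cannot be told apart. Gene models were matched by protein ID, and functions come from annotation terms in the study's supplementary tables, of which the first parts were at hand. The pathway lists hold only those models. The genome table given here carries no functions or sequences, so no sequences are shown.

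Counts were tested with edgeR 4.0.16 (R 4.3.3): filterByExpr, TMM scaling, 1 quasi-likelihood fit of 6 group means over 18 libraries, 9 comparisons of stage or tissue and their interaction, with Benjamini-Hochberg adjustment over 16485 gene models. Standard errors were derived from the fitted test. CPM are TMM-scaled. RPKM was used for ratios and levels between genes. The fit was also run on simulated independent libraries with the same spread for all gene models. That run did not cover the uneven spread and the close pairs of these libraries. Alternatives were DESeq2 1.42.0, RLE scaling, TMM computed without the 50 most read models, no filter beyond 1 read, the groups compared alone, a replicate block, no minimum fold change, near-identical replicates summed, and each library left out. Named genes were all members in every library, the 4 largest called fold changes of each list, and the 3 nearest profiles. The other gene models described were chosen after their values were seen. Members and lists were chosen with earlier results of these data known.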

Additional observations from a re-analysis of the deposited data

Results flagged for a closer look

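Of the 21 other gene models of the pathway lists, 6 passed the call rule in the interaction test in edgeR, where 14.5% of all gene models were called. The values are late against early in caps minus late against early in stipes (log2 ± SE). These 6 are shown because they passed this test. Phosphoglucose isomerase JGI.320024 had 1.35 ± 0.26 (adjusted p = 0.00225). Citrate synthase JGI.387122 had 1.17 ± 0.31 (adjusted p = 0.0145), succinate-CoA ligase JGI.300566 had 1.42 ± 0.38 (adjusted p = 0.0152), JGI.661891 had 1.66 ± 0.29 (adjusted p = 0.00104) and succinate dehydrogenase JGI.638670 had 1.45 ± 0.40 (adjusted p = 0.0163). Each of these 5 was called in all 25 alternatives. GAPDH JGI.184409 had -2.84 ± 0.98 (adjusted p = 0.0478) and was called in 10 of 25 alternatives, with values from -3.16 to -2.07. None of the 7 described gene models was called in this test.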

How the results depend on the processing

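Leaving out each of the 18 libraries in turn gave 4 to 6 members called in late against early stipes, 2 to 5 in late against medium stipes, 0 to 1 in medium against early stipes, 1 to 3 in late against early caps, 0 to 1 in late against medium caps, 0 to 1 in medium against early caps, 0 to 2 in early caps against early stipes, 0 to 1 in medium caps against medium stipes, 2 to 3 in late caps against late stipes and 0 to 1 in the interaction. With no minimum fold change, 7 members were called in late against medium stipes, 5 in late against early caps, 2 in late against medium caps and 4 in late caps against late stipes. In medium against early stipes 0 were called with the groups compared alone and 0 with near-identical replicates summed. That summing gave 2 in late against early caps, and DESeq2 gave 1 in medium against early caps. Replicate numbers showed no common pairing over all groups. The median correlation of deviations from group means was -0.02 over 45 pairs with the same number and 0.02 over 90 with different numbers. With the same number it ranged from -0.61 to 0.42, and 4 of 18 libraries were on average nearest to their own number. These pairs pool stages and tissues, so pairing of caps with stipes of the same stage was not tested. The main fit treats caps and stipes as unpaired. The replicate block left the number of members called the same in each comparison, with 5 in late against early stipes, and gave -0.031 for malate dehydrogenase JGI.185536 there. This fold change also changed sign without early stipe 3 (-0.18) and ranged from -0.36 to 0.31 when single libraries were left out. For JGI.185536, late against early caps ranged from -0.011 to 0.14 and late caps against late stipes from -0.18 to 0.48. The interaction of aldolase JGI.291195 was -0.22 without early stipe 3 and up to 0.32 without another library. Of the 1075 member fold changes recomputed, 1027 kept direction and side of the threshold. Of the 1075, 774 came from leaving out a single library, often one outside the groups compared, so this count is not a measure of stability. Depth did not limit the members, all of which had at least 2167 reads in each library.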
